A study of Mus musculus with 9 samples.

Results

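Dopamine is made from tyrosine, loaded into vesicles, released, taken up again and sensed by receptors, and 7 genes of that chain were followed here through CpG methylation in the nucleus accumbens: Th and Ddc for synthesis, Slc6a3 and Slc18a2 for transport, and Drd3, Drd4 and Drd5, the receptors that are less abundant in this region than Drd1 and Drd2. They were chosen by name, with earlier results of these data known, and are 7 of the 34324 genes, coding for protein or long noncoding RNA, with bounds on the autosomes and the X chromosome. All 7 gave a start window and a gene body with enough calls in every library, so no member was lost to a filter.

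Tyrosine hydroxylase (Th) carries out the rate-limiting step of dopamine synthesis and aromatic L-amino acid decarboxylase (Ddc) the next one. The vesicular monoamine transporter VMAT2 (Slc18a2) fills synaptic vesicles, and the dopamine transporter DAT (Slc6a3) returns released dopamine to the terminal. The dopamine neurons that supply the accumbens have their cell bodies, and so their nuclear DNA, in the midbrain, and reach the accumbens through axons. Methylation of CpGs near a gene start is generally low where the start is CpG-rich, and high where CpGs are sparse.

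The DNA came from frozen punches of the nucleus accumbens, part of the ventral striatum, of male C57BL/6J mice aged 8 weeks. The libraries labelled Control were C2, C3, C4, C5 and C8 in the titles (n = 5, called Control 2 to Control 8 here), and those labelled Susceptible were d2, d3, d6 and d7 (n = 4). The labels describe chronic social defeat, 10 daily bouts with an aggressive retired CD1 breeder male, and carry this same treatment text on every library, so the housing of Control mice and the scoring of susceptibility remain unstated. No label says whether a library is 1 animal or a pool, so p-values measure the spread between these libraries. Bisulfite leaves methylated cytosine and hydroxymethylated cytosine unchanged alike, so both count as methylated. A punch mixes cell types, and an intermediate level from fully methylated and unmethylated cells together cannot be told apart from partial methylation in each cell.

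Across the libraries, 313475624 to 570984634 calls (reads of a listed cytosine) lay on 13446563 to 22631489 cytosines, each with at least 10 calls, and every Susceptible library held more calls than any Control library. Control 5 and Control 8 stood apart in the squared difference between the strands of a CpG. It averaged 18.4 and 19.7 times its binomial value there and 2.38 to 6.11 times in the others. Only CpGs of intermediate level called on both strands entered this average. Susceptible 7 had the lowest median level over all start windows, 23.1% against 25.6 to 28.5% in the other libraries. Its median over all bodies was also lowest, 75.67% against 77.15 to 78.34%. Shares by direction over all features include this library unless stated. Bodies of 10 striatal projection neuron markers had a median level of 49.0 to 53.0% in Control and 50.1 to 59.4% in Susceptible, and bodies of 8 cortical projection neuron markers 25.3 to 30.7% and 24.3 to 28.0%. Of the glial lists, 7 astrocyte markers had start windows at 31.7 to 43.3% in Control against 22.8 to 33.1% in Susceptible, with a median difference of -4.67 points, and bodies at 71.7 to 75.5% against 65.5 to 73.9% (median difference -2.31 points). The starts of 8 oligodendrocyte markers lay at 47.5 to 56.8% and 43.2 to 50.5% (median difference -1.50 points), and those of 7 microglia markers at 80.4 to 86.8% and 81.7 to 84.1% (-1.20 points). No marker in these lists passed the adjusted threshold. The part of depth and of these marker levels in the results below was not tested. Values of windows, bodies and named tiles without Control 5 and Control 8 are given, here or under the dependence on processing, where they turn a sign.

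The contrast on which the results turn is shown by 4 starts. Each sequence is RefSeq's for GRCm38.p6, runs 5′ to 3′ on the strand of the gene from 250 bases before the start to 20 bases from it, and has every CpG in capitals. Th (chr7:142899976-142900245, minus strand) and Slc18a2 (chr19:59260628-59260897, plus strand) are shown because both hold the palindrome TGACGTCA, the cyclic AMP response element (CRE), at different methylation. Drd3 (chr16:43761971-43762240, plus strand) and Drd5 (chr5:38319259-38319528, plus strand) are shown as the CpG-poorest and the CpG-richest receptor start.
Th: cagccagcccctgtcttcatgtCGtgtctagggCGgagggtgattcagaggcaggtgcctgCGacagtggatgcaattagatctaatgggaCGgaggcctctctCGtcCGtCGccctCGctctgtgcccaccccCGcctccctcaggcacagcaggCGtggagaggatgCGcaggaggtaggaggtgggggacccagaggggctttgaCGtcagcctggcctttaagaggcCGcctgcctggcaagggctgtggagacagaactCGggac
Slc18a2: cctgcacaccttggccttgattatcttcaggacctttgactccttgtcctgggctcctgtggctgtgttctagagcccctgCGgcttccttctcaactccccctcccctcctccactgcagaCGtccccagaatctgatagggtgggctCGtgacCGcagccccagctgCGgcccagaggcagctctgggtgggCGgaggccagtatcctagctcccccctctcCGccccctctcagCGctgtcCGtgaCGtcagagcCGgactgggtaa
Drd3: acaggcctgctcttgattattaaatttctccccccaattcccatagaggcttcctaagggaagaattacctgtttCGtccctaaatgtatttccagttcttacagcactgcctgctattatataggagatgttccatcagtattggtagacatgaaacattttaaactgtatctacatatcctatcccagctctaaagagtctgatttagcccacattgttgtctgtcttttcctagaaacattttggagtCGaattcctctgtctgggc
Drd5: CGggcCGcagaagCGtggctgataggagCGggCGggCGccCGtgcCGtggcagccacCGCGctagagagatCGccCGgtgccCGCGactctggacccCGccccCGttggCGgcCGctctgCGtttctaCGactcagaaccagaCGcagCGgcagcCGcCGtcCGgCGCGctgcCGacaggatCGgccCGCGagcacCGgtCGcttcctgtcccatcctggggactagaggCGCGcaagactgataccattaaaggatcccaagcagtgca

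Within 300 bases of the start region (250 before to 50 after), the Th sequence had 15 CpGs, Slc18a2 12, Drd3 2 and Drd5 38, against a median of 7 over 32619 promoters. Of all promoters, 95% held fewer CpGs than Drd5 and 13.9% fewer than Drd3. Read over these same bases and averaged over the 9 libraries, methylation was 92.4% at Drd3, 69.8% at Th, 12.8% at Slc18a2 and 1.47% at Drd5. The 4 sequences not printed read 94.4% at the outer Ddc start (2 CpGs), 24.3% at the inner Ddc start (5 CpGs), 5.66% at Drd4 (15 CpGs) and 1.52% at Slc6a3 (20 CpGs). Th and Drd4 thus held the same number of CpGs at 69.8% and 5.66% methylation.

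The CRE was found in 1.80% of the 32619 promoters, searching both strands of the 300 bases; the GC box GGGCGG was found in 35.9% and the E-box CACGTG in 7.2%. Among the members the CRE occurred at Th and Slc18a2, the GC box at Th, Slc6a3, Slc18a2, Drd4 and Drd5, and the E-box at Slc6a3. These matches describe the letters and not binding.

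Positions of single CpGs are given from the base of the gene start, counted as 1, with negative positions before it and no position 0. At Th, the CpG inside the CRE lies at -42, and its methylation was 50, 46.8, 75.5, 2.13 and 72.0% in Control 2, 3, 4, 5 and 8. Susceptible 2, 3, 6 and 7 stood at 54.2, 61.7, 50 and 34.2%. These averaged 49.3% ± 29.3 (SD, n = 5) and 50% ± 11.6 (SD, n = 4), and the groups overlapped. The order of these means rested on single libraries: leaving out Control 5, a choice made after seeing the data, gave a Control mean of 61.1% (n = 4) and a difference of -11 points, and leaving out Control 5 and Control 8 gave 57.4% (n = 3) and -7.41 points. The lowest value was that of Control 5, 1 of the libraries with high strand disagreement, where 47 calls gave a 95% Wilson interval of 0.377 to 11.1%. In the other 8 libraries the CRE lay between 34.2 and 75.5%, and over all 9 it averaged 49.6%, beside 77.9% for the CpG at -81 and 75.7% for the one at -19. The CRE was not below both neighbours in every library. In Control 8, at 72.0%, it lay above both (55.8 and 42.9%), and in Control 4, at 75.5%, above the CpG at -81 (68.3%).

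At Slc18a2 the same letters hold a CpG at -1, and none of its 195 calls in the 9 libraries was methylated, which allows a level of up to 1.54%. This limit, like the binomial intervals, covers counting error only, because calls from copies of 1 molecule are not independent. Upstream of it, methylation averaged 2.76% at -6, 29.8% at -56, 19.4% at -101 and 40.9% at -169. The CpG at -128 was listed in 7 libraries with 178 calls, and read 3.32% ± 3.14 in Control (SD, n = 3) and 37.7% ± 11.3 in Susceptible (SD, n = 4), with no overlap. It was singled out after its values were seen and is given without a test, and at its neighbours at -101 and -95 the groups overlapped.

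Another dip of the mean at Th covered the CpGs at -146, -142, -139 and -133, which averaged 53.7, 51.3, 38.9 and 63.8%, beside 78.3% at -159 and 83.8% at -116. Control 5 and Control 8 were the lowest libraries at all 4 of these CpGs, at 2.04 and 6.45% for the CpG at -139, where the other 7 libraries lay between 34.8 and 65.6%. At -133 the other 7 lay between 62.3 and 93.3%, beside 58.1 to 90.9% at -159. The lower mean at -133 than at -159 thus rested largely on Control 5 and Control 8.

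**Figure D1:**
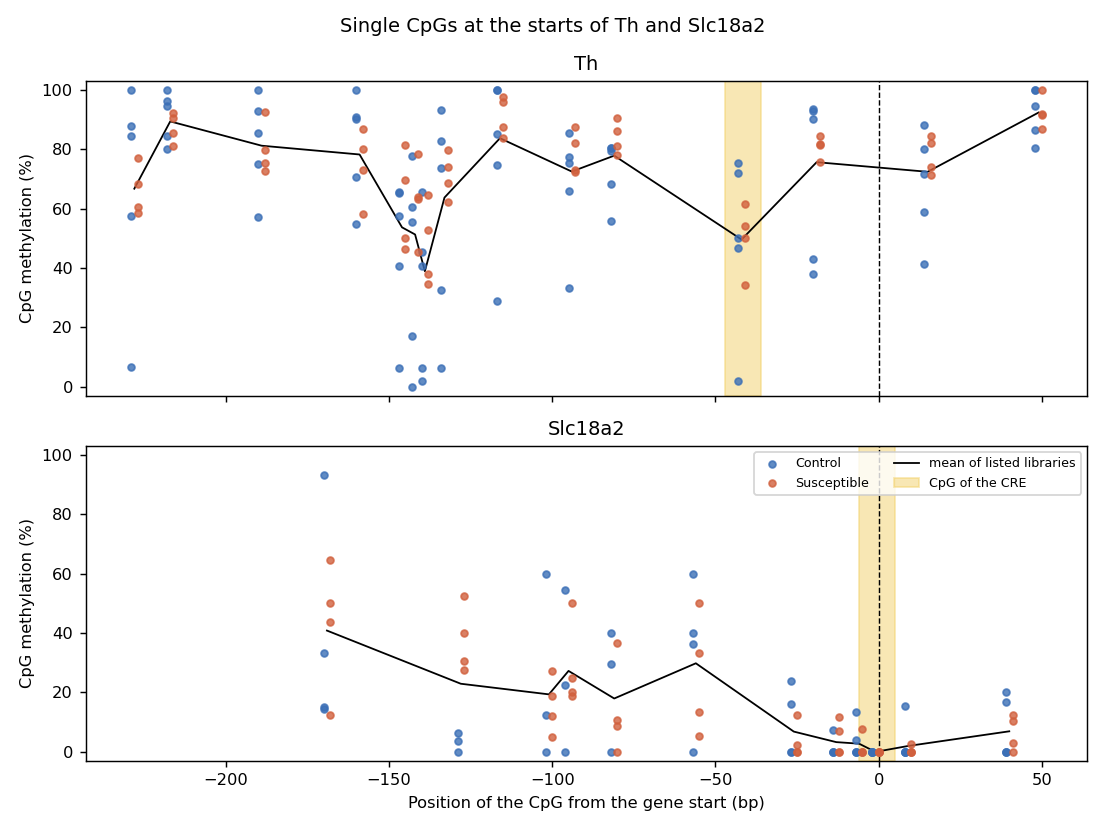
Methylation (%) of single CpGs against their position from the gene start (bp) at Th (top) and Slc18a2 (bottom), 1 point per library, with the mean of the libraries in which the CpG is listed as a line and the CpG of the CRE shaded. The CRE of Th averages 49.6% and lies in a dip, while that of Slc18a2 is at 0 in all 9 libraries.

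To ask whether defeat susceptibility went with a change in methylation, start windows (1000 bp on each side of the gene start), gene bodies and 1-kb tiles were compared between the groups with a quasi-binomial model of methylated and unmethylated calls, with limma's moderation of the dispersion and Benjamini-Hochberg adjustment over all features. An adjusted p under 0.05 was reached by 0 of 34495 start windows, 0 of 31726 bodies and 0 of 1041809 tiles, a share of 0% in each comparison. An unadjusted p under 0.05 was reached by 1649, 1510 and 45605 of them (4.78%, 4.76% and 4.38%), and limma on logit levels also gave 0 adjusted, with 1305, 1332 and 33856 unadjusted. None of the 8 member start windows (Ddc has 2 starts) and none of the 7 bodies passed either threshold, and in none were the groups apart, against 1.82% of all start windows and 1.61% of all bodies. The member results below are therefore mainly levels.

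Th lies at chr7:142892779-142899995 on the minus strand. Its start window, with 26 to 29 CpGs and 836 to 1791 calls, read 78.2, 82.8, 80.5, 68.7 and 72.5% in Control 2, 3, 4, 5 and 8. The values for Susceptible 2, 3, 6 and 7 were 75.6, 79.4, 82.9 and 77.0%. The Th start was methylated in every library, and the groups overlapped. The means of 76.5% ± 5.83 (SD, n = 5) and 78.7% ± 3.21 (SD, n = 4) differed by 2.17 points (limma-moderated model, adjusted p = 0.991), and by -1.80 points without Control 5 and Control 8, the 2 lowest libraries. Without Control 5 alone the difference was 0.208 points.

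The Th body read 78.9% ± 1.22 in Control (SD, n = 5) and 81.0% ± 3.10 in Susceptible (SD, n = 4), a difference of 2.08 points (limma-moderated model, adjusted p = 0.992) that was 1.13 points without Susceptible 6 and 3.50 points without Susceptible 7. Over all 9 libraries the start averaged 77.5% and the body 79.8%. In bins of 500 bp, methylation was 88.0% just after the start, 69.9% just before it and 37.5% at 1.25 kb before it. It was lowest at 3.25 kb before the start, at 11.5% over 3 CpGs, in a stretch where the RefSeq table places no gene. The nearest protein-coding gene, Ascl2, lies 66827 bp from Th.

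Ddc spans chr11:11814101-11898144 on the minus strand and has 2 starts, 7736 bp apart. The outer window, with 10 to 25 CpGs, read 83.7, 80.2, 85.2, 96.9 and 73.2% in Control 2, 3, 4, 5 and 8, compared with 89.7, 86.5, 80.8 and 84.2% in Susceptible 2, 3, 6 and 7. The inner window, with 10 to 19 CpGs, read 52.1, 44.6, 50.3, 56.1 and 64.9% in Control and 51.6, 56.4, 51.3 and 69.5% in Susceptible. The inner start was the lower of the pair in all 9 libraries, and Control 5 and Control 8 were the highest and the lowest library at the outer start.

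The Control and Susceptible means at the outer start were 83.8% ± 8.63 (SD, n = 5) and 85.3% ± 3.77 (SD, n = 4), with an adjusted p = 0.976. At the inner start they were 53.6% ± 7.56 (SD, n = 5) and 57.2% ± 8.54 (SD, n = 4), with an adjusted p = 0.984. Without Control 5 and Control 8 the difference, Susceptible minus Control, went from 1.45 to 2.24 points at the outer start and from 3.59 to 8.20 points at the inner one, and neither passed the threshold. In bins of 500 bp, methylation was 31.1% at 7.75 kb into the gene, at the inner start, while the bin just after the outer start read 80.5%. The body read 81.5% ± 1.94 in Control (SD, n = 5) and 81.0% ± 0.448 in Susceptible (SD, n = 4), with adjusted p = 0.997 in the same model.

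Slc6a3, the dopamine transporter, lies at chr13:73536128-73578672 on the plus strand. Its start window, with 51 to 66 CpGs and 1752 to 3440 calls, read 13.6, 14.1, 16.9, 18.5 and 17.2% in Control 2, 3, 4, 5 and 8. In Susceptible 2, 3, 6 and 7 it read 14.3, 13.8, 14.3 and 11.3%. The start of this gene, used mainly by midbrain neurons, was thus little methylated in accumbens DNA, and 3 of 5 Control libraries lay above all Susceptible ones. The highest of these were the strand-discordant Control 5 and Control 8, without which the difference was -1.44 points in place of -2.63.

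The Slc6a3 means of 16.1% ± 2.13 (SD, n = 5) and 13.4% ± 1.45 (SD, n = 4) differed by -2.63 points, with the smallest unadjusted p among the member starts (adjusted p = 0.976). In windows of 500 bp on each side the difference was 0.899 points, so its sign depended on the width of the window. The 500 bp just before the start read 3.09%, and 73.3% was reached at 0.75 kb after it. The body read 67.5% ± 2.52 in Control (SD, n = 5) and 66.2% ± 1.52 in Susceptible (SD, n = 4), with adjusted p = 0.992.

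Slc18a2, the vesicular transporter, lies at chr19:59260878-59296012 on the plus strand, with the bounds of Pdzd8 72 bp away. Its start window, with 64 to 73 CpGs and 2547 to 4030 calls, read 18.8, 14.7, 13.8, 15.7 and 24.7% in Control 2, 3, 4, 5 and 8. Susceptible 2, 3, 6 and 7 read 18.8, 17.5, 16.9 and 15.4%. The Susceptible libraries lay within the range of Control, whose top value was the strand-discordant Control 8.

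The Slc18a2 means were 17.5% ± 4.43 (SD, n = 5) and 17.1% ± 1.42 (SD, n = 4), with an adjusted p = 0.996. The lowest 500 bp followed the start, at 4.87%, where that of Slc6a3 preceded it. The body read 66.2% ± 3.82 in Control (SD, n = 5) and 67.1% ± 1.17 in Susceptible (SD, n = 4), with adjusted p = 0.997.

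Drd3 codes for a D2-class receptor that is enriched in the ventral striatum. The gene spans chr16:43754015-43825982 on the plus strand, with its RefSeq start 8206 bp inside the outer bound. The start window, with 12 to 15 CpGs and 377 to 866 calls, read 97.0, 94.9, 94.9, 93.6 and 97.6% in Control 2, 3, 4, 5 and 8. The values for Susceptible 2, 3, 6 and 7 were 93.5, 92.8, 96.0 and 94.1%. This was the highest level of any member start, and 98.4% of all start windows were lower.

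The Drd3 start means were 95.6% ± 1.63 (SD, n = 5) and 94.1% ± 1.40 (SD, n = 4), with an adjusted p = 0.976. Low methylation in Drd3 lay elsewhere. The 500 bp centred 8.25 kb before the tabulated start, at the outer bound of the gene, read 13.2%, against 97.9% just before the tabulated start. The body read 78.3% ± 1.5 in Control (SD, n = 5) and 79.6% ± 2.35 in Susceptible (SD, n = 4), with adjusted p = 0.992.

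Drd4, another D2-class receptor, occupies chr7:141291974-141296464 on the plus strand and its neighbour Deaf1 lies 712 bp away. The start window, with 53 to 68 CpGs and 1404 to 2414 calls, read 36.4, 27.5, 34.5, 34.2 and 36.3% in Control 2, 3, 4, 5 and 8. In Susceptible 2, 3, 6 and 7 it read 32.3, 36.5, 39.1 and 26.5%. The lowest and the highest library were both Susceptible, and the means of 33.8% ± 3.64 (SD, n = 5) and 33.6% ± 5.50 (SD, n = 4) gave an adjusted p = 1.0.

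The Drd4 body was the least methylated of the 7 bodies. It read 21.7, 19.3, 18.1, 19.1 and 16.2% in Control 2, 3, 4, 5 and 8. Susceptible 2, 3, 6 and 7 read 15.8, 21.0, 20.5 and 13.1%. Only 4.88% of all bodies were lower, and means of 18.9% ± 1.98 (SD, n = 5) and 17.6% ± 3.79 (SD, n = 4) gave adjusted p = 0.997. Along the gene the level was 7.2% just after the start, 83.0% at 1.25 kb and 1.22% at 2.25 kb, so that the low stretch at the start was followed by another inside the gene.

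Drd5 codes for the D1-class receptor beside Drd1 and is a short gene, chr5:38319509-38322523 on the plus strand, inside the bounds of the long noncoding RNA gene Gm26560. Calls from the 2 genes cannot be separated there. The start window, with 85 to 111 CpGs and 2627 to 6673 calls, read 31.4, 31.1, 27.6, 29.8 and 32.9% in Control 2, 3, 4, 5 and 8. The values for Susceptible 2, 3, 6 and 7 were 32.3, 32.3, 28.9 and 33.1%. The means of 30.6% ± 2.0 (SD, n = 5) and 31.7% ± 1.87 (SD, n = 4) gave an adjusted p = 0.986.

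The Drd5 window averaged an abrupt boundary. Methylation was 3.72% in the 500 bp before the start, 14.1% in the 500 bp after it and 90.2% in the next bin, at 0.75 kb. The body, which lies mostly past that boundary, read 60.2% ± 3.97 in Control (SD, n = 5) and 60.9% ± 2.25 in Susceptible (SD, n = 4), with adjusted p = 1.0. Among all start windows, 88.7% held fewer CpGs than that of Drd5, while 51.3% had a lower level.

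**Figure D2:**
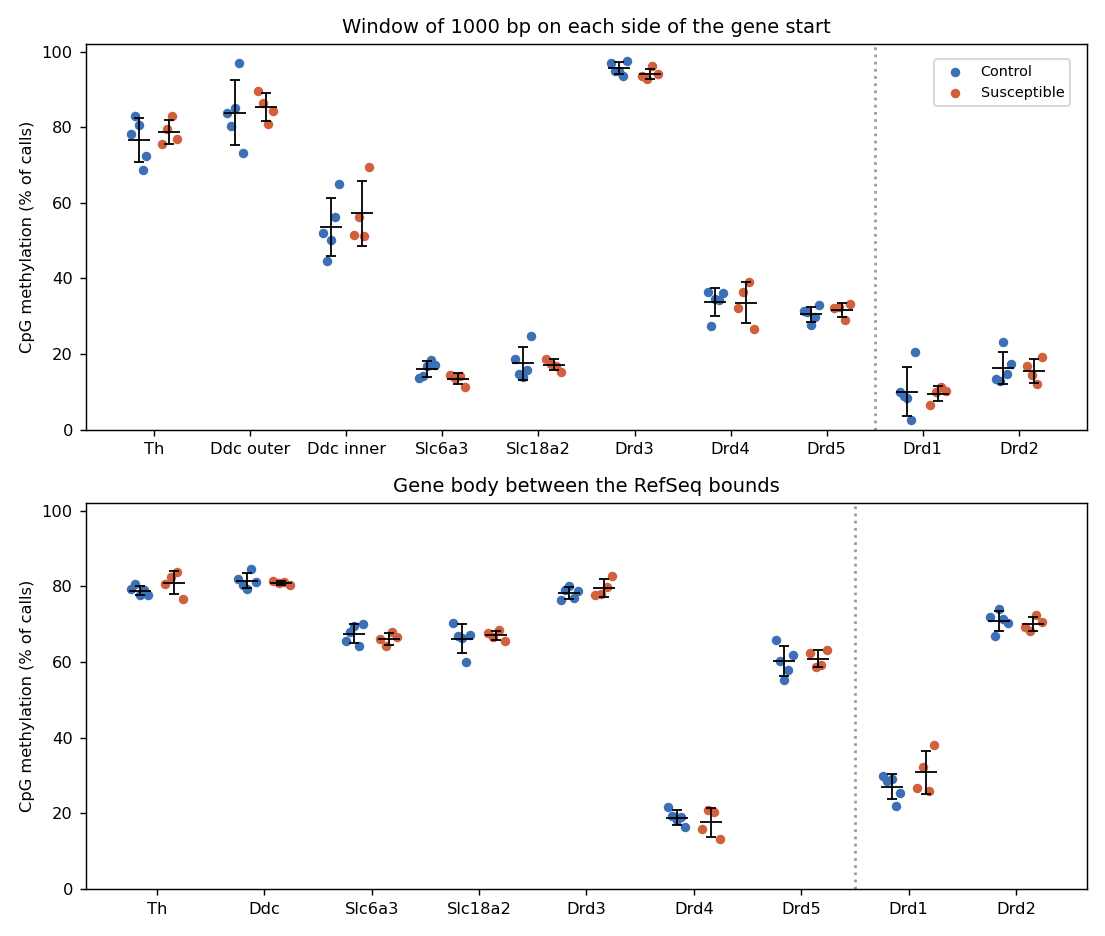
CpG methylation (% of calls) of each member's start windows (top) and gene body (bottom), 1 point per library, with bars for the group mean and SD, and Drd1 and Drd2 right of the dotted line. Points of Control and Susceptible overlap at every member, while members run from 14.9% (Slc6a3) to 94.9% (Drd3) at the start.

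Ordered by the mean start level over the 9 libraries, the members were Drd3 (94.9% ± 1.64), outer Ddc (84.5% ± 6.57), Th (77.5% ± 4.71), inner Ddc (55.2% ± 7.71), Drd4 (33.7% ± 4.24), Drd5 (31.1% ± 1.91), Slc18a2 (17.4% ± 3.26) and Slc6a3 (14.9% ± 2.23; SD, n = 9 each). Neighbours in this order had ranges over the libraries that overlapped, except that inner Ddc stood clear of Drd4, and Drd5 of Slc18a2. Over all start windows the quartiles were 4.29% and 84.3% and the median 26.2%, with 47.6% of windows below 20% and 38.4% above 70%. By rank, 98.4% of all start windows were lower than Drd3, 75.4% than outer Ddc, 66.6% than Th and 56.7% than inner Ddc. Both transporters lay a little below the middle, with 46.2% of windows lower than Slc18a2 and 44.5% lower than Slc6a3. Bodies ran from 18.3% at Drd4 to 81.3% at Ddc, beside a median of 77.4% over all bodies.

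**Figure D3:**
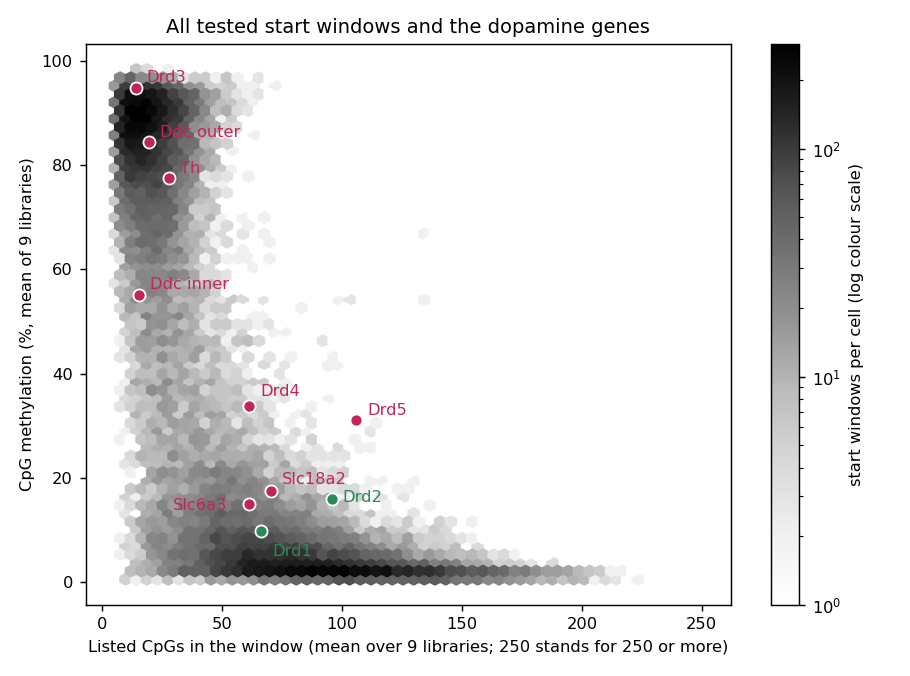
Mean methylation (%) of all tested start windows against the mean number of listed CpGs per window (grey cells, darker for more windows on a log colour scale), with the members in red and Drd1 and Drd2 in green. Counted over the window, Drd3, Th and the outer Ddc start lie among CpG-poorer methylated starts, and the inner Ddc start is CpG-poorer at 55.2%. The transporters lie among CpG-richer low starts, and Drd5 at 31.1% with 85 to 111 CpGs.

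**Figure D4:**
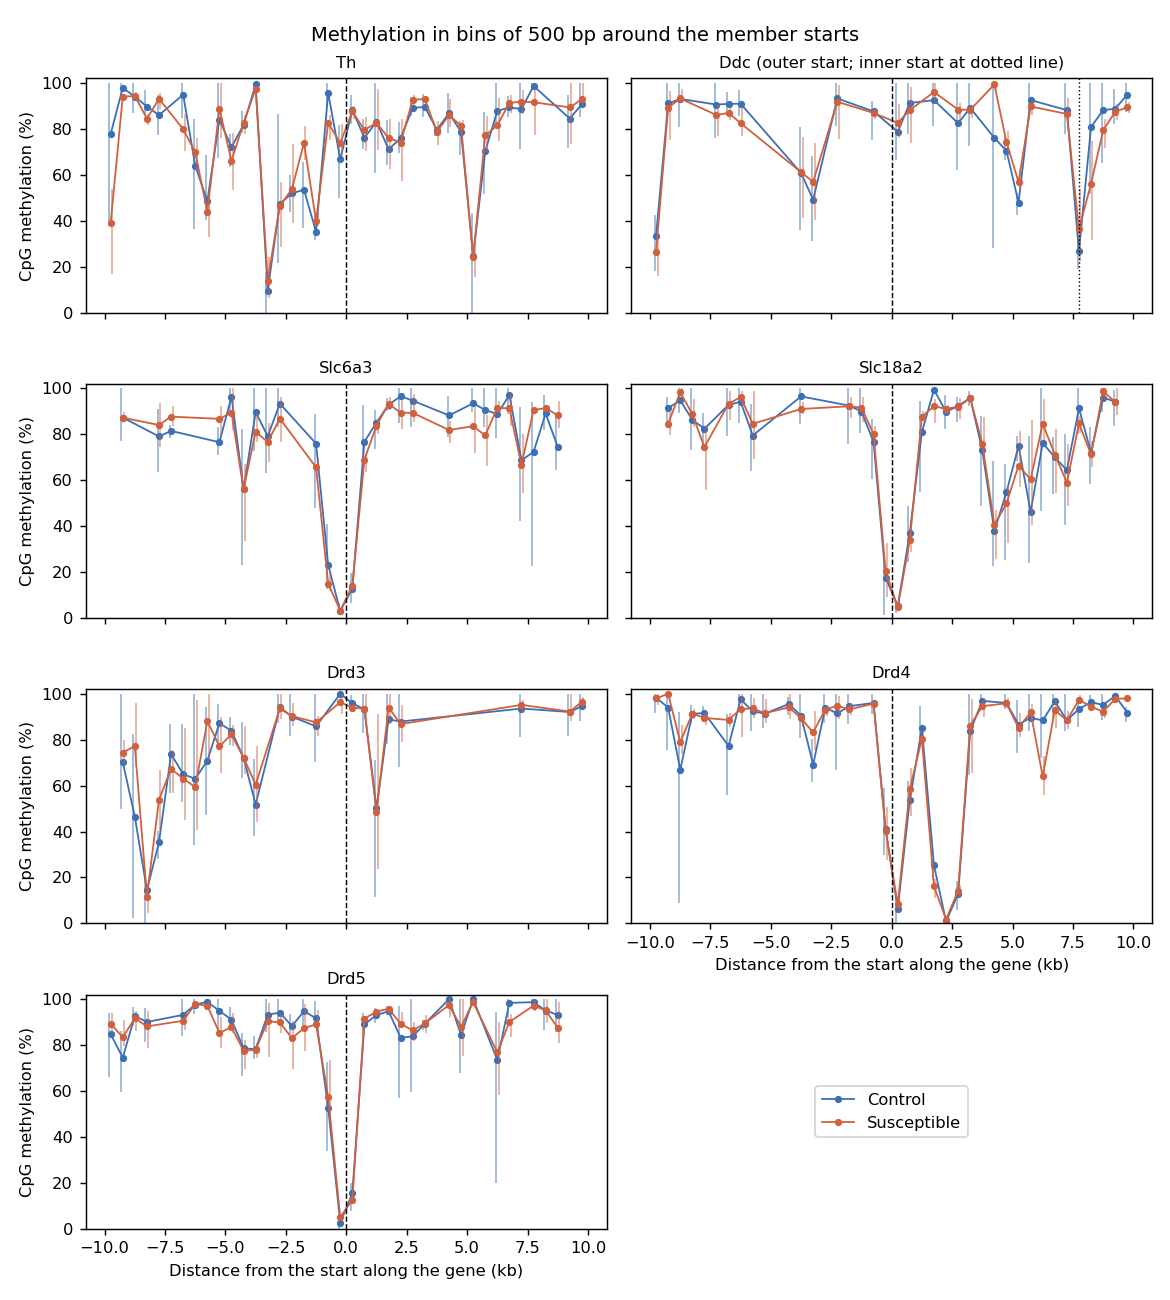
Methylation (%) in bins of 500 bp against distance from each member's start (kb, along the direction of the gene), as group means (lines) with the range over libraries (bars); the dotted line in the Ddc panel is its inner start. Slc6a3, Slc18a2, Drd4 and Drd5 dip at the start, Ddc dips at the inner start (31.1%), and Drd3 stays at 97.9% there and dips to 13.2% at its outer bound.

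The abundant accumbens receptors Drd1 and Drd2 gave a reference within each library. Drd1, the main D1-class receptor, had a start level of 10.1% ± 6.53 in Control (SD, n = 5) and 9.52% ± 2.03 in Susceptible (SD, n = 4). Drd2, the main D2-class receptor, had one of 16.3% ± 4.22 and 15.6% ± 3.10. Each member was set against both in the same library, for start and body, by a two-sided exact sign-flip permutation test over the 9 libraries; the smallest p such a test can give is 0.00391. A body includes the part of the start window that lies inside the gene, so start and body comparisons share CpGs. The shared part takes up more of the body in short genes such as Drd5. Of 28 comparisons, 26 had an adjusted p under 0.05. The test asks only whether a member and a reference gene differ in level, and it was not run on other genes. No share over all genes therefore stands beside this count, which cannot be read as particular to the members.

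Start windows of Th exceeded Drd1 by 67.7 points and Drd2 by 61.5 points, those of Ddc (outer) by 74.6 and 68.5, and those of Drd3 by 85.1 and 78.9, each in 9 of 9 libraries (exact sign-flip adjusted p = 0.00456). Drd4 exceeded them by 23.9 and 17.7 points and Drd5 by 21.2 and 15.1 points, also in 9 of 9 (exact adjusted p = 0.00456). Slc18a2 exceeded Drd1 by 7.53 points in 9 of 9 (exact adjusted p = 0.00456) and Slc6a3 by 5.05 points in 8 of 9 (exact adjusted p = 0.0168).

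The differences between the transporters and Drd2 at the start did not pass the threshold. Slc6a3 minus Drd2 was -1.11 points (range -7.89 to 3.86; exact adjusted p = 0.438), and Slc18a2 minus Drd2 was 1.37 points (range -9.37 to 7.26; exact adjusted p = 0.438). Both depended on the window: with 500 bp on each side the differences were 2.81 (exact adjusted p = 0.0121) and 1.96 points (exact adjusted p = 0.0352), and with 2000 bp Slc6a3 exceeded Drd2 by 8.22 points (exact adjusted p = 0.00438).

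In the bodies, Drd4 was below Drd1 by 10.4 points and below Drd2 by 52.2 points in 9 of 9 libraries (exact adjusted p = 0.00456). The other members exceeded the Drd1 body by 31.8 (Drd5) to 52.5 points (Ddc). The Drd1 body was itself low, with 7.59% of all bodies below it, and the Drd2 body had 37.5% below it. Beside the median of 77.4% over all bodies, Th, Ddc and Drd3 lay above, and Slc6a3, Slc18a2, Drd4 and Drd5 below. Against the Drd2 body, Th, Ddc and Drd3 were higher by 9.27, 10.7 and 8.34 points in 9 of 9, and Slc18a2 and Drd5 lower by 3.95 and 10 points in 9 of 9 (exact adjusted p = 0.00456). Slc6a3 was lower by 3.63 points in 8 of 9 (exact adjusted p = 0.0131).

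On the scale of 1-kb tiles, the genes and the 10 kb on each side held 253 tested tiles, 166 of them inside a gene. An adjusted p under 0.05 was reached by 0 tiles (smallest adjusted p 0.997 in the limma-moderated model). An unadjusted p under 0.05 was reached by 15 tiles (5.93%; 8 higher and 7 lower in Susceptible), against 4.38% of all tiles (2.18% higher and 2.19% lower), and 2 tiles had groups that did not overlap, against 1.56% of all tiles. Most tiles were methylated, 206 above 70% and 9 below 30%, with 38 in between; of all 1041809 tiles, 86.7% were above 70% and 3.66% below 30%. Differences ran from -18.2 points, at Th, to 21.7 points, at Ddc. Both ends rested in part on 1 library, left out after seeing the data: the Th tile differed by -10.8 points without Control 5, and the Ddc tile by 12.4 points without Susceptible 7 and by 12.6 points without Control 5 and Control 8.

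The Ddc tile with the smallest unadjusted p was chr11:11844001-11845000, inside the gene and inside the long noncoding RNA gene Gm51937. It read 84.2, 75.4, 79.7, 86.1 and 85.4% in Control 2, 3, 4, 5 and 8, compared with 77.6, 72.7, 66.6 and 63.7% in Susceptible 2, 3, 6 and 7. Susceptible was lower by 12 points (limma-moderated model, adjusted p = 0.997), and Susceptible 2 lay within the Control range. The tile of smallest unadjusted p around Drd4, chr7:141301001-141302000 in the neighbour Deaf1, read 94.8, 95.3, 95.5, 91.7 and 88.7% in Control and 98, 98.2, 97.9 and 97.9% in Susceptible. Here every Susceptible library was higher, by 4.81 points on average (adjusted p = 0.997), and the 2 lowest libraries were Control 5 and Control 8, without which the difference was 2.81 points. Inside Drd4, chr7:141293001-141294000 was singled out after its values were seen. It covers the methylated bin at 1.25 kb (83.0% over 8 CpGs) and nearly all of the bin at 1.75 kb (21.2% over 31 CpGs), at the edge of the inner low stretch. The tile read 36.8, 38.5, 37.0, 49.3 and 31.7% in Control and 26.9, 31.9, 32.4 and 22.8% in Susceptible. That is a difference of -10.2 points with overlap between the groups (limma-moderated model, adjusted p = 0.997).

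For Th the tile of smallest unadjusted p was also its least methylated one, chr7:142903001-142904000, in sequence without a gene upstream of the start. It read 42.7, 57.1, 54.2, 87.5 and 47.3% in Control and 32.0, 29.4, 57.2 and 39.8% in Susceptible, a difference of -18.2 points (limma-moderated model, adjusted p = 0.997). The spread was wide, and Control 5 was the highest library, without which the difference was -10.8 points. Just upstream of Slc6a3, chr13:73535001-73536000 read 65.5, 59.6, 59.7, 51.7 and 56.6% in Control and 49.2, 52.1, 43.0 and 44.8% in Susceptible, lower by 11.4 points (adjusted p = 0.997). The adjoining tile over the Slc6a3 start, chr13:73536001-73537000, was at 4.47% and differed by -0.846 points.

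In Drd3 the smallest unadjusted p belonged to chr16:43807001-43808000, where Susceptible was higher, 82.0% ± 8.55 (SD, n = 4) against 67.6% ± 7.10 (SD, n = 5; limma-moderated model, adjusted p = 0.997). The tile that holds the outer bound of Drd3, chr16:43754001-43755000, was singled out after its values were seen. It read 29.1, 39.3, 36.2, 28.7 and 52.3% in Control and 44.1, 50.3, 57.4 and 60.8% in Susceptible, higher by 16 points with overlap between the groups (limma-moderated model, adjusted p = 0.997). The low bin at the bound, 8.25 kb before the tabulated start, was not higher, at 14.5% in Control and 11.7% in Susceptible. The bin at 7.75 kb before that start read 35.4% and 53.9%, and the bin at 7.25 kb 73.7% and 67.3%. Besides the Deaf1 tile, the groups did not overlap at chr16:43779001-43780000 in Drd3. This tile had means of 98.6% in Control and 95% in Susceptible with an unadjusted p above 0.05, and was also singled out after its values were seen.

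In Slc18a2 the smallest unadjusted p was at chr19:59276001-59277000, 81.9% in Control and 88.0% in Susceptible (limma-moderated model, adjusted p = 0.997). In Drd5 it was at chr5:38320001-38321000, past the boundary described above, 90.5% and 92.7% (adjusted p = 0.997). In both tiles the groups overlapped. The Slc18a2 difference of 6.16 points was 3.65 without Control 8, 4.04 without Control 3 and 9.34 without Control 5, and the Drd5 difference of 2.24 points was 1.05 without Control 5 and Control 8.

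**Figure D5:**
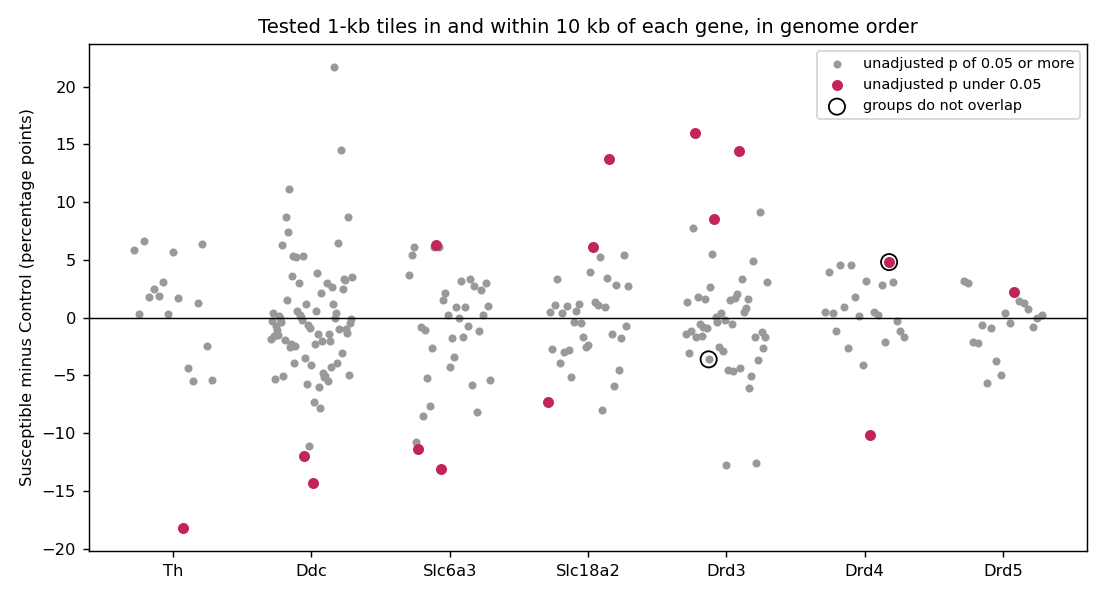
Difference in methylation (Susceptible minus Control, percentage points) of each tested 1-kb tile in and within 10 kb of a member, in genome order within each gene; larger red points have an unadjusted p under 0.05 and circles mark groups that do not overlap. Differences lie on both sides of 0 at every member, and 15 of 253 tiles are red.

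The least methylated tile of each locus was not always at its start. It lay over the start for Slc6a3 (4.47%) and Drd5 (8.93%), and directly after it for Slc18a2 (18.2%). For Drd4 the lowest tile, chr7:141294001-141295000, was inside the gene with 54 to 65 CpGs at 4.99%, below the 17.4% of the tile over the start. For Drd3 it was chr16:43802001-43803000, 40.3 kb into the gene with 11 to 19 CpGs, which read 5.44, 15.5, 7.69, 2.33 and 12.4% in Control and 6.02, 8.97, 7.25 and 10.1% in Susceptible, and at which the RefSeq table places no start. For Ddc it was the start of the neighbour Fignl1 beyond the gene's end (2.25%), and no tile inside Ddc or at Th was below 30%.

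Other genes of the dopamine pathway were counted from a list of 33: cofactor synthesis, dopamine breakdown, other monoamine transporters, transcription factors of dopamine neurons, striatal signal transduction, and Drd1 and Drd2. An adjusted p under 0.05 was reached by 0 of 32 start windows and 0 of 33 bodies. Unadjusted, 1 start was higher and 1 lower in Susceptible, against 2.31% and 2.47% of all start windows. Slc18a1, the vesicular transporter of endocrine cells, read 0.941% ± 0.590 in Control (SD, n = 5) and 2.05% ± 0.631 in Susceptible (SD, n = 4; limma-moderated model, adjusted p = 0.976). Otx2, a midbrain patterning factor, read 25.3% ± 4.48 and 19.3% ± 1.72, with groups that did not overlap (adjusted p = 0.976).

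Among pathway bodies 2 were higher and 0 lower unadjusted, against 1.44% and 3.32% of all bodies. The lean of these shares rested on 1 library: 458 bodies were higher and 1052 lower with every library, and 750 and 792 of 31738 without Susceptible 7. Gng7, a G protein subunit of striatal neurons, read 50.8% ± 1.60 in Control (SD, n = 5) and 55.4% ± 4.69 in Susceptible (SD, n = 4; limma-moderated model, adjusted p = 0.992). The median difference was 0.075 points for pathway starts and -0.174 points for bodies, beside -0.080 and -0.391 over all features. Those all-feature medians turned to 0.123 and 0.064 points without Susceptible 7. The lowest start of the list was Pde10a, a phosphodiesterase of striatal projection neurons, at 1.24%, and the highest was Dbh, which turns dopamine into noradrenaline, at 87.8%. Of the catecholamine synthesis genes, Th (77.5%), Dbh and the outer Ddc start (84.5%) were high, with the inner Ddc start at 55.2% and Pnmt at 60.3%. The 6 genes of cofactor synthesis and recycling had a median start level of 8.12%, and the transcription factors one of 2.46%.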

How the data were processed

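Whole-genome bisulfite libraries were made by the authors with a Pico Methyl-seq kit from column-purified DNA, per the labels' protocols. Bismark, Bowtie, Picard and the mouse build mm10 are named, without roles, per the submitters' processing notes. The deposited coverage is a count of calls per CpG cytosine and strand, per the file headers, and the deposited percent of calls read as C gives methylated calls when multiplied by that count. The deposited values show a minimum of 10 calls per cytosine. Removal of repeated reads is not given in the sources used here.

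Strands were added, and calls were summed over start windows, bodies and 1-kb tiles on autosomes and X. Starts came from RefSeq promoters (GRCm38.p6, 32619 starts); for 7531 genes without strand the CpG-richer gene end stood in. Every one of 396389 listed CpGs inside promoter sequences fell on a CG. Windows and bodies needed 5 CpGs, tiles 3, and all needed 20 calls in every library. Groups were compared with a quasi-binomial model (numpy 2.4.6, scipy 1.17.1), with dispersions moderated as in squeezeVar of limma (limma 3.58.1, R 4.3.3), F test and Benjamini-Hochberg adjustment, threshold 0.05. The model pools the calls of a group, so libraries with more calls weigh more. Printed means and differences weigh each library equally and are not the quantity tested. The model was tested on simulated data. Replicates differed by more than sampling noise. Members and lists were chosen with earlier results of these data known; motif letters, the promoter reading, the leave-one-out of the Drd1 and Drd2 comparison and that of the Th CRE and the extreme tiles were chosen after seeing the data.

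Named tiles follow a rule: per member the tile of smallest unadjusted p, the least methylated tile, and tiles of 10 points or more without overlap (0 were found). The 3 tiles singled out in the text, 1 in Drd4 and 2 in Drd3, fall outside this rule and were chosen after their values were seen, as were the highest Ddc tile and the Slc18a2 CpG at -128. Named pathway genes are those with an unadjusted p under 0.05 and the lowest and highest start; 1 gene body that this rule names is not reported here. Single CpGs carry no test, and levels were tested only within libraries, against Drd1 and Drd2. Alternatives were other call minimums, CpGs of all 9 libraries, other models, window sizes, a replicate block and leaving out libraries.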

Additional observations from a re-analysis of the deposited data

Results flagged for a closer look

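In the Control group, the Drd4 start window of Control 3 read 27.5%, while the other 4 Control libraries lay between 34.2 and 36.4%. Its gap to the next library was 0.75 of the range of the group, above Dixon's 95% critical value of 0.71 for 5 samples. Of 56 member groups examined in this way, 1 stood out, and chance gives about 1 in 20. Susceptible 7 was lower still, at 26.5%.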

How the results depend on the processing

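Over 28 member windows, bodies and tiles, 508 alternative values were computed, of which 0 passed the adjusted threshold (smallest adjusted p 0.867 over these models). Unadjusted p values under 0.05 made up 91 of the 124 values at the 7 tiles chosen for the smallest p of their gene. The choice itself raises that share. Of the 384 other values they made up 6 (1.56%), beside 4.38% of all tiles with every library. Those 384 values are refits of the same 21 windows, bodies and tiles and not separate features, so the 1.56% and the 4.38% are unlike measures. Leaving out 1 library moved 21 of the 28 differences by over 1.5 times or turned them. The 7 that it did not were the starts of Slc6a3 and Drd3 and the tiles of smallest unadjusted p of Ddc, Slc6a3, Drd3, Drd4 and Drd5. Counts past the threshold over all features stayed at 0 under every alternative run, except that leaving out 1 library gave 0 to 1 tiles (1 without Control 4 in the limma-moderated model, which is not 1 of the named member tiles). Signs of several small differences turned, in percentage points, and the cause was not tested. With 20 calls per cytosine, the Slc18a2 start turned to 0.291 and the Fignl1 tile beside Ddc to -0.0463. With CpGs of all 9 libraries, the outer Ddc start turned to -3.57, the Slc18a2 and Drd5 bodies to -0.748 and -0.137, and the lowest tiles of Ddc, Slc18a2 and Drd3 to -0.100, -0.0523 and 2.06. Without Control 5 and Control 8, starts of Th, Slc18a2 and Drd4 turned to -1.80, 1.38 and 0.810, bodies of Ddc and Slc18a2 to 0.367 and -0.786, and the lowest tiles of Ddc and Drd4 to -0.0255 and -0.270. With 500 bp, starts of Slc6a3, Drd4 and Drd5 turned to 0.899, 0.248 and -0.477, and with 2000 bp that of Slc18a2 to 1.73. Leaving out 1 library at a time, the turned starts ranged from -1.21 to 4.71 (outer Ddc), -0.523 to 6.41 (inner Ddc), -1.32 to 1.41 (Slc18a2) and -2.01 to 2.20 (Drd4). The turned bodies ranged from -1.09 to 0.207 (Ddc), -0.629 to 1.99 (Slc18a2), -2.41 to 0.211 (Drd4) and -0.543 to 2.06 (Drd5), and the lowest tiles from -0.943 to 2.68 (Slc18a2), -2.17 to 1.11 (Drd3), -0.172 to 1.29 (Drd4) and -1.53 to 0.103 (Drd5). The difference at the CpG in the Th CRE ranged from -11 to 7.29 and was -7.41 without Control 5 and Control 8, and that of the highest tile, at Ddc, ranged from 12.4 to 29.6; these were added after seeing the data.

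The sign-flip comparison with Drd1 and Drd2 gave 26 of 28 in the main setting, 28 with 500 bp and 27 with 2000 bp. Slc6a3 minus Drd2 turned to 1.70 with CpGs of all 9 libraries, 2.81 with 500 bp and 8.22 with 2000 bp, and Slc18a2 minus Drd2 passed with 500 bp (1.96 points, exact adjusted p = 0.0352). Leaving out each library left 26 of 28.

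The numbers 2 and 3 occur in both groups, but same-numbered libraries deviated together with r = 0.0257 and -0.0256 only, so they share a number. A replicate block on them gave 0 start windows, 0 bodies and 0 tiles past the threshold, and turned starts of Th, Slc6a3, Slc18a2 and Drd4 to -3.05, 0.214, 1.42 and 2.43, bodies of Slc18a2 and Drd5 to -1.46 and -2.60, and the lowest Drd4 tile to -0.947. That fit used only Control 2, Control 3, Susceptible 2 and Susceptible 3, whose numbers occur in both groups. Its turned signs cannot be told apart from the loss of the other libraries.

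Depth limited single CpGs most, at 10 or more calls each; over a start window the 95% Wilson half-width was at most 5.43 points (inner Ddc).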

Other observations

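Over the 7 striatal signal transduction genes, the median body difference was 4.67 points higher in Susceptible, with Gng7 at 4.67 points, but 0 of the 7 passed the adjusted threshold and the medians per library overlapped between the groups (49.1 to 53.6% in Control, 50.7 to 60.3% in Susceptible). Bodies of the striatal projection neuron markers had a median difference of 3.45 points, those of the astrocyte markers -2.31 points and astrocyte starts -4.67 points, and their part in this value was not tested. Ppp1r1b, Gnal, Pde10a and Rgs9 belong to both striatal lists, so the medians of these lists share gene bodies and are not separate observations. Bodies of the 9 transcription factors of dopamine neurons had a median of 18.7%, beside 18.3% for the body of Drd4, whereas the 6 genes of dopamine breakdown and conversion had a median of 76.7%.

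As a description over the 9 libraries among 31726 bodies, the body whose level moved most like a member's was Il10 for Th (r = 0.942), Oosp2 for Ddc (r = 0.974), Gng3 for Slc6a3 (r = 0.957), Kng1 for Slc18a2 (r = 0.987), Epb41l1 for Drd3 (r = 0.968), 9130015A21Rik for Drd4 (r = 0.939) and Lsm11 for Drd5 (r = 0.954). The points share library, depth and, in Control 5 and Control 8, high strand disagreement, and with so many bodies searched 4 to 162 of them exceeded 0.9 for a member.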
